A study of Rattus norvegicus with 6 samples.

Results

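A set of 5 transcripts of the insulin-like growth factor (IGF) axis and of glucocorticoid metabolism was followed in rat oligodendrocyte precursor cells treated with VCAM1 shRNA or with control shRNA against luciferase. The transcripts were chosen by identifier and make up 5 of the 20174 features on the chip: Igfbp3 (ENSRNOG00000008645), Igfbp2 (ENSRNOG00000016957), Igf1 (ENSRNOG00000004517), Igf1r (ENSRNOG00000014187) and Hsd11b2 (ENSRNOG00000017084). The gene names are those under which the identifiers were selected, since the array files and the reference gene table used here pair no identifier with a symbol. Igfbp3 and Hsd11b2 were chosen because they were already known to be low in this comparison, and the other 3 for their place in the IGF axis. The values of this comparison are therefore given as a description, with no test on any of the 5.

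The cells came from embryonic day 15 rat brain and were treated for 20 h in both groups. The study's methods describe Sprague–Dawley cortical cells passaged in serum and then grown without it in medium with PDGF-AA, bFGF and the N2 supplement, while the labels name a modified Raff medium. Total RNA was hybridized to 6 one-colour chips, 3 from luciferase shRNA (control) and 3 labelled VCAM1 shRNA, numbered 1 to 3 in each group and called control and VCAM1 replicates. Neither the labels nor the methods say whether the arrays of a group came from separate cultures, so the spread between them, and any p-value from it, may be technical. With 3 arrays a group the precision is limited. The chip measures RNA of the whole culture, in which fewer cells of a type and less RNA per cell cannot be told apart.

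IGF1 is a secreted growth factor that signals through the receptor tyrosine kinase IGF1R, and in the oligodendrocyte lineage it is known for promoting survival, proliferation and myelin formation. Most extracellular IGF is held by binding proteins, which can keep it from the receptor or deliver it. IGFBP3 carries most of the IGF in serum, and IGFBP2 is a prominent binding protein of the developing brain. HSD11B2 inactivates glucocorticoids inside the cell and so keeps corticosterone from its receptors; glucocorticoids are also known to act on oligodendrocyte maturation.

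The promoters of both binding proteins are shown because Igfbp3 was lower on all arrays of the VCAM1 shRNA group, as described further on, and its relative Igfbp2 was not. Each line gives the 250 bases before the annotated start from RefSeq (GRCr8), read 5′ to 3′ on the strand of the gene, for Igfbp3 at chr14:86277945-86278194 on the minus strand and for Igfbp2 at chr9:81864561-81864810 on the plus strand. Capitals mark matches to the motifs searched.
Igfbp3: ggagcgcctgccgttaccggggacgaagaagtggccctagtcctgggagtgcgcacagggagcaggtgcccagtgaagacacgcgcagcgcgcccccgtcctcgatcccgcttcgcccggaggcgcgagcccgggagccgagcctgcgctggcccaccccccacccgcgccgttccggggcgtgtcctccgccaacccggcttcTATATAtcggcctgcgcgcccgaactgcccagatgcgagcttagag
Igfbp2: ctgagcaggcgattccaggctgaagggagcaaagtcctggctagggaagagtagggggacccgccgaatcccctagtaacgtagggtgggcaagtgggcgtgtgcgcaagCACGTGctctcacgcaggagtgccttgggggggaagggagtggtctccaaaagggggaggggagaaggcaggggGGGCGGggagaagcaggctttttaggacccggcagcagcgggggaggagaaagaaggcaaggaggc
In all, 9 motifs were searched on both strands. They were the TATA-type motifs TATAAA and TATATA, the GC box GGGCGG, the E-box CACGTG, the CCAAT box, the glucocorticoid half-site AGAACA, the forkhead motif GTAAACA, the STAT motif TTCNNNGAA and the AP-1 motif TGANTCA. Igfbp3 held 1 match, TATATA at 46 to 41 bases before the start, a motif found in 5.45% of the 33465 promoters of the same length. Igfbp2 held CACGTG at 140 to 135 bases before the start and GGGCGG at 66 to 61, which occur in 5.59% and 30.5% of promoters. Igf1r held the same 2 motifs as Igfbp2, 1 match each, and Igf1 held 1 match to AGAACA, which occurs in 17.5% of promoters. The Igfbp3 window was 71.6% G and C with 31 CpG sites, and the Igfbp2 window 64.0% with 11, against medians of 51.2% and 5 over all promoters. RefSeq promoters were matched for 4 of the 5 genes. Hsd11b2 was the exception. These matches describe the letters of the windows only.

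Across the chip, between 14701 and 17068 of the 20174 features were detected per array. All 5 transcripts were detected on all 6 arrays and were among the 16141 features tested, those detected on at least 3 arrays. In limma with Benjamini-Hochberg adjustment, 0 features had an adjusted p below 0.05 (0% of those tested), 286 (1.77%) had an unadjusted p below 0.05, and the methods' t-test on unlogged signals gave 0 and 353. Blocking on the replicate number gave 20 features (0.124%) with an adjusted p below 0.05 in limma. VCAM1 replicate 3 had the lowest share of detected features, 72.9%, against 77.9% to 84.6% on the other 5 arrays, and without it 1357 features had an unadjusted p below 0.05. Leaving out control replicate 2 gave 166, and leaving out VCAM1 replicate 2 gave 182. The median log2 fold change over all features tested was 0.064. It was 0.25 without VCAM1 replicate 3, -0.0051 without VCAM1 replicate 2 and -0.035 without VCAM1 replicate 1. With a control array left out it lay between 0.051 and 0.077. Vcam1 itself and the markers of oligodendrocyte precursors and of other cell types were not analysed here, because no file used here names their features, so the label of the knockdown was not checked.

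Igfbp3 and Hsd11b2 were lower on every VCAM1 array than on every control array, by 1.73-fold and 1.86-fold, whereas the ranges of Igfbp2, Igf1 and Igf1r overlapped between the groups. The local background measured around each spot was not subtracted from these signals. Signals are on a linear scale on which the median of the detected signals of each array is 25, and the brightness of different spots depends on the probe, so levels are not set against each other between genes. Standard errors of log2 fold changes are those of limma, moderated toward a spread shared by all features. They are therefore not the standard errors that a gene's own SD would give.

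**Figure D1:**
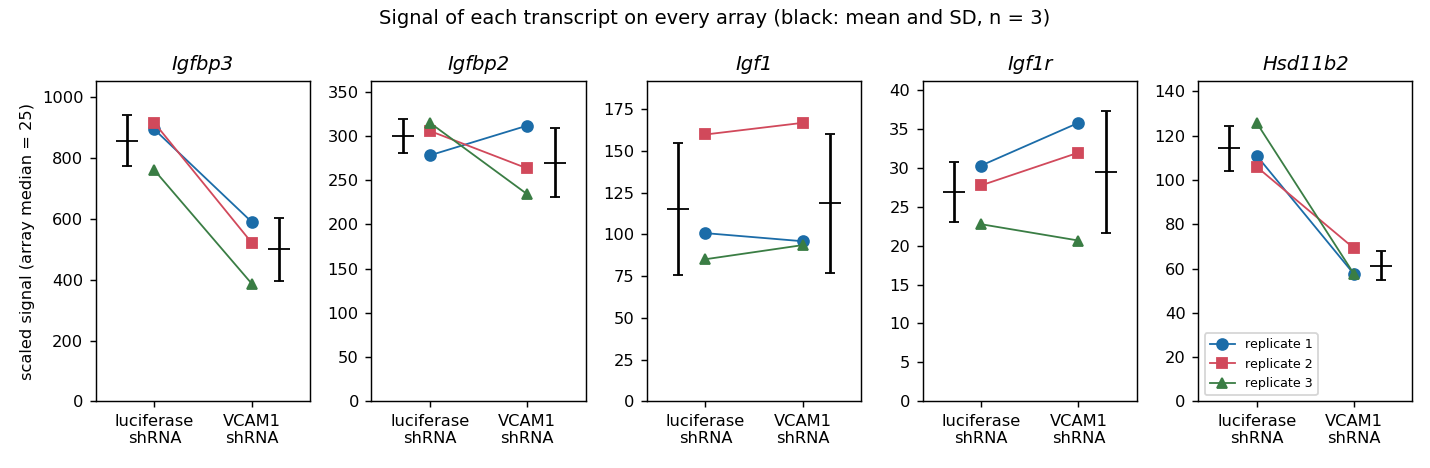
Scaled signal (vertical axes, linear, each panel with its own scale) of the 5 transcripts on the 3 luciferase shRNA and 3 VCAM1 shRNA arrays. Lines join arrays of the same replicate number, and black marks give the mean and SD of 3 arrays. Igfbp3 and Hsd11b2 lay below every control array on all VCAM1 arrays, and replicate 2 was the highest for Igf1 in both groups.

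For Igfbp3, the IGF carrier, the signal was 894, 915 and 759.7 on control arrays 1 to 3 and 589.7, 521 and 387 on the VCAM1 arrays. In this signal, without subtraction of local background, all 3 control arrays were above all arrays of the other group, with the lowest value on VCAM1 replicate 3. The means were 856 ± 84.2 and 499 ± 103 (SD, n = 3), and the log2 fold change was -0.79 (standard error 0.24), or 57.6% of the control level. Within same-numbered pairs, the log2 difference was -0.60, -0.81 and -0.97. At or below the value of Igfbp3 lay 52 features, or 0.322% of those tested. The spot medians before any subtraction or scaling also kept the groups apart, from 1576 to 2237 on the control arrays and from 915 to 1130 on the others. This was not particular to Igfbp3. Spot medians were also apart for Hsd11b2 and for Igfbp2 (676 to 712 and 568 to 604), and overlapped for Igf1 and Igf1r. The brightest spot of the chip was likewise lower on every VCAM1 array, 48815 to 57517 against 59059 to 62583. Leaving out VCAM1 replicate 3 changed the log2 fold change of Igfbp3 to -0.62, and leaving out VCAM1 replicate 1 changed it to -0.93. The median of all features tested moved in the same directions, to 0.25 and -0.035.

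For Hsd11b2, the glucocorticoid-inactivating enzyme, the signal was 111, 106 and 126 on the control arrays and 57.4, 69.1 and 57.5 on the VCAM1 arrays. The groups were again separate, and here the arrays of each group lay close together. The means were 114 ± 10.3 and 61.3 ± 6.73 (SD, n = 3), with a log2 fold change of -0.90 (standard error 0.22), or 53.6% of the control level. The log2 difference within pairs was -0.95, -0.62 and -1.13. Of the features tested, 38 (0.235%) lay at or below this fold change. With 1 array left out the value stayed between -0.99 and -0.83. The value did depend on the background correction. With normexp on the local background the log2 fold change was 0.0075 (standard error 0.37), too imprecise to tell a lower level from no difference.

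Both transcripts met criteria that few features met, though they were chosen by this same comparison and nothing is read from the counts. Groups without overlap and lower with VCAM1 shRNA occurred in 330 features (2.04%), 2 of the 5 transcripts among them, and 1137 features (7.04%) were lower in all 3 pairs.

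For Igfbp2, the other binding protein, the signal was 278, 306 and 315 on the control arrays and 312, 263 and 234 on the VCAM1 arrays. The groups overlapped, since VCAM1 replicate 1 was above 2 of the control arrays. The means were 299 ± 19.1 and 269.6 ± 39.2 (SD, n = 3), with a log2 fold change of -0.16 (standard error 0.22). The pairs disagreed in sign, with log2 differences of 0.16, -0.22 and -0.43. Leaving out VCAM1 replicate 3 brought the log2 fold change to -0.062, while the median of all features tested rose to 0.25.

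For Igf1, the ligand, the signal was 101, 159.8 and 85.1 on the control arrays and 95.9, 167 and 93.6 on the VCAM1 arrays. Replicate 2 was the highest in both groups, and the other arrays of both groups lay within the range from 85.1 to 101. The means were 115 ± 39.4 and 119 ± 41.6 (SD, n = 3), and the log2 fold change was 0.042 (standard error 0.34). Between same-numbered arrays the log2 difference was -0.071, 0.062 and 0.14.

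For Igf1r, the receptor, the signal was 30.3, 27.7 and 22.7 on the control arrays and 35.8, 31.9 and 20.6 on the VCAM1 arrays. The groups overlapped, and replicate 3 was the lowest in both. The means were 26.9 ± 3.83 and 29.4 ± 7.86 (SD, n = 3), with a log2 fold change of 0.10 (standard error 0.28). The log2 difference was 0.24, 0.20 and -0.14 in the 3 pairs. Leaving out VCAM1 replicate 3 gave a log2 fold change of 0.34 between the groups, and leaving out VCAM1 replicate 1 gave -0.058. The median of all features tested moved in the same directions, to 0.25 and -0.035, so these shifts are not particular to Igf1r.

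**Figure D2:**
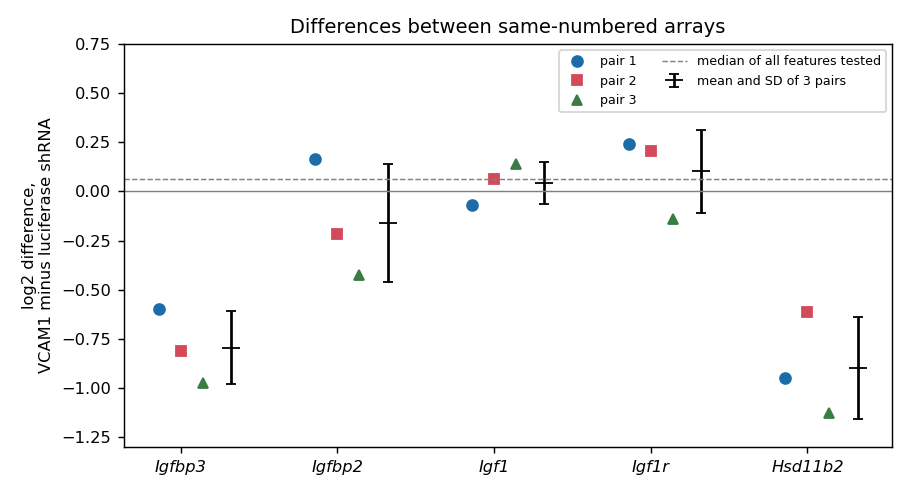
Log2 difference in signal between arrays of the same replicate number (vertical axis, VCAM1 minus luciferase shRNA) for the 5 transcripts (horizontal axis). Coloured symbols are the 3 pairs, black marks their mean and SD, and the dashed line is the median of all features tested, 0.064. All pairs of Igfbp3 and Hsd11b2 lay at -0.60 or below, and those of the other 3 transcripts lay on both sides of 0.

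The 5 transcripts were unlike each other in their spread within a group. The SD of the log2 signal, pooled over both groups, was 0.14 for Hsd11b2, 0.16 for Igfbp2, 0.24 for Igfbp3, 0.33 for Igf1r and 0.47 for Igf1, against a median of 0.34 over all features tested. Igf1 thus varied most, 1.88-fold between the lowest and the highest control array, and this variation was shared by same-numbered arrays. Local background at the Igf1 spot was also highest on replicate 2, at 332 (control) and 348 (VCAM1) scanner units. Its part in the shared variation was not tested. The Igf1 signal of replicate 2 was 0.52 above the group mean in the control group and 0.54 above it in the other group on the log2 scale. The differences within pairs accordingly had an SD of 0.11 for Igf1, smaller than its spread within the groups. Their SD was also smaller than that spread for Igfbp3 (0.19) and Igf1r (0.21), and larger for Igfbp2 (0.30) and Hsd11b2 (0.26). A larger SD is what differences between unrelated arrays would have. For Igfbp2, same-numbered arrays deviated in opposite directions, as in replicate 1 with -0.11 in the control group and 0.22 in the other.

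The 2 binding proteins were also set against each other within each array, which does not depend on how the array was scaled. The log2 difference between Igfbp3 and Igfbp2 changed by -0.76, -0.60 and -0.55 in pairs 1 to 3 (VCAM1 minus control). The mean change was -0.64 ± 0.11 (SD, n = 3 pairs), and the groups did not overlap. Relative to Igf1r, Igfbp3 changed by -0.90 ± 0.10 (SD, n = 3 pairs) and Hsd11b2 by -1.19, -0.82 and -0.99 in pairs 1 to 3, again without overlap. Hsd11b2 relative to Igfbp2 changed by -1.11, -0.40 and -0.70, also without overlap. Relative to Igf1, Igfbp3 changed by -0.53, -0.87 and -1.11, and here the groups overlapped. Igfbp3 relative to Hsd11b2 changed by 0.35, -0.20 and 0.16, so neither transcript was lowered more than the other in every pair. These values rest on the same comparison that chose Igfbp3 and Hsd11b2 and show only that the features changed unequally.

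**Figure D3:**
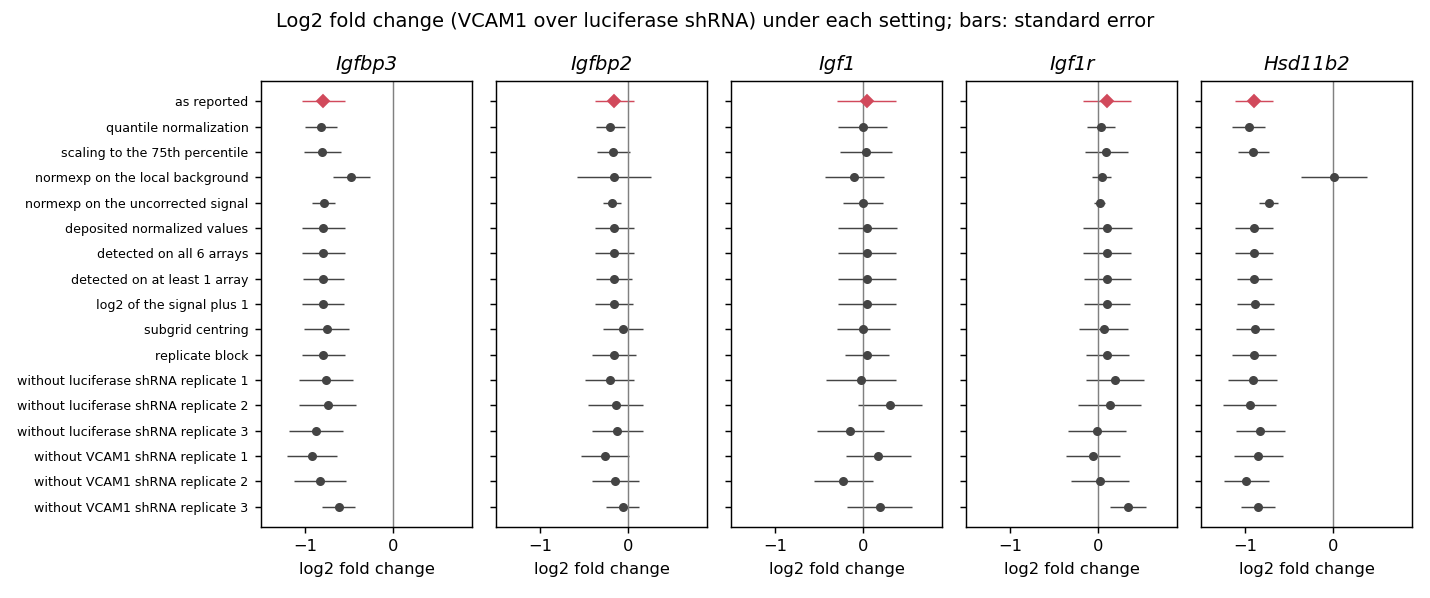
Log2 fold change of the 5 transcripts (horizontal axes, VCAM1 over luciferase shRNA) as reported (red) and under 10 other settings and with each of the 6 arrays left out (black), with the moderated standard errors of limma as bars. Igfbp3 stayed between -0.93 and -0.47, and Hsd11b2 lay at -0.74 or below except with normexp on the local background, where it was 0.0075.

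Local background, the brightness that the scanner measures around a spot, entered neither the deposited signals nor those given above, which use blank spots instead, and it moved with the groups at some of these spots. At the Igfbp3 spot the control arrays had 763 to 1259 scanner units of it and the VCAM1 arrays 138 to 554. At the Hsd11b2 spot the corresponding values were 158 to 261 and 85.3 to 117, so that at both spots it was lower on every VCAM1 array. At the Igfbp3 spot it amounted to 43.2%, 61.2% and 48.4% of the spot median on the control arrays and to 16.2%, 51.0% and 15.1% on the VCAM1 arrays. At the Hsd11b2 spot the shares were 53.8%, 96.0% and 87.1% on the control arrays and 95.2%, 62.3% and 50.3% on the others. Less its local background, the Igfbp3 spot was brighter on VCAM1 replicate 1 (1130 less 183) than on control replicate 3 (1576 less 763). At Hsd11b2 the same held for VCAM1 replicate 2 (177 less 111) against control replicate 2 (272 less 261). After that subtraction the groups therefore overlapped at both spots. At the spots of the other 3 transcripts the share ranged over the 6 arrays from 14.8% to 81.4% for Igfbp2, from 63.0% to 98.8% for Igf1 and from 82.7% to 98.0% for Igf1r. The spots of Igf1 and Igf1r were thus little brighter than their surroundings on most arrays. The median share over all detected features lay between 55.1% and 85.3% per array. Over all 5 spots the local background was between 76.7 and 1259 scanner units, well above the blank spots, whose mean was between 13.9 and 39.7. With normexp on the local background, the log2 fold change was -0.47 for Igfbp3, -0.16 for Igfbp2, -0.10 for Igf1 and 0.038 for Igf1r. The part of the local background in the differences of Igfbp3 and Hsd11b2 was not tested.

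**Figure D4:**
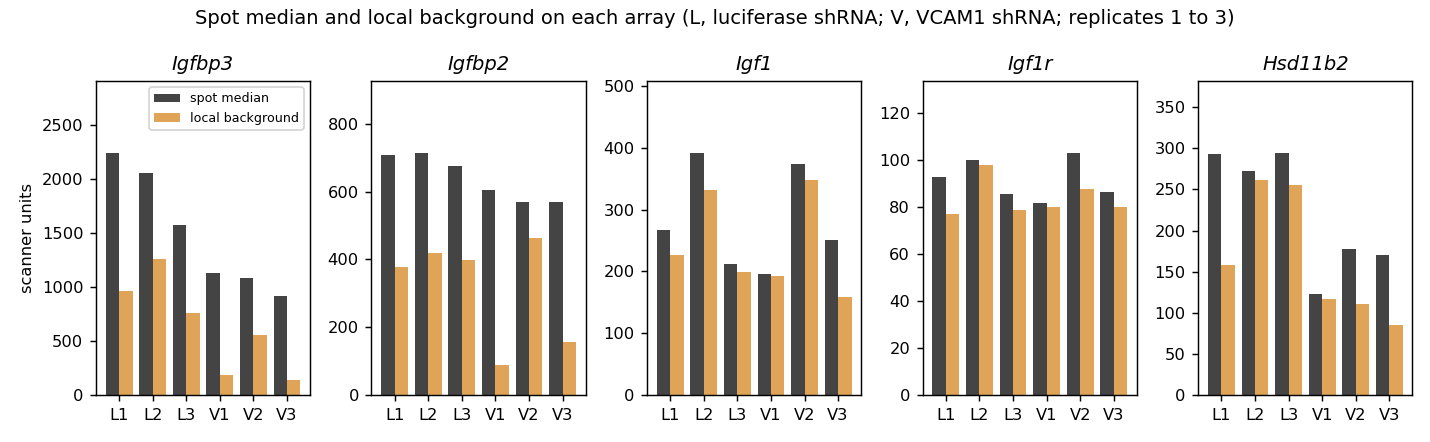
Spot median (dark bars) and local background (light bars) in scanner units (vertical axes, linear, from 0) for the 5 transcripts on the luciferase shRNA (L) and VCAM1 shRNA (V) arrays, replicates 1 to 3. At the Igfbp3 spot both values were lower on all V arrays, and at the Hsd11b2 spot the local background of L2 reached 96.0% of the spot median.

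The values were also set against the position of the spots on the chip. The spots lie in subgrids 19 (Igfbp3), 17 (Igfbp2), 1 (Igf1 and Igf1r) and 9 (Hsd11b2) of the 24 subgrids. The other features of those subgrids had median log2 fold changes of 0.053, 0.030, 0.050 and 0.10, within the range of -0.0053 to 0.11 over all subgrids. With each subgrid centred on its own median, a setting chosen after seeing the data, the log2 fold change was -0.76 for Igfbp3 and -0.89 for Hsd11b2. The lowest of the 30 signals, that of Igf1r on VCAM1 replicate 3, was 25.1 times the detection limit of its array, a limit set by the blank spots and not by the local background, which was 92.3% of the spot median there.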

How the data were processed

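Total RNA of 6 samples was labelled with Cy5 and hybridized to a rat oligo chip 20k, and the authors deposited each array's scanner intensity values (spot median and local background median, without normalization) and a table of normalized intensity values on the linear scale, whose median is 25 on every array. The genome build and probe sequences are not given in the sources used here.

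From the spot medians, the mean of the 5808 blank spots was subtracted after leaving out 5% at each end. Features more than 2 SD above that mean and not marked by the scanner software were called detected and scaled to a median of 25. Undetected features took the array's lowest detected value, and log2 was then taken. These signals differed from the deposited intensity values by at most 0.180%, and at most 14 detection calls differed per array. Each feature has 1 spot. Groups follow the sample titles.

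Features detected on at least 3 arrays were fitted with limma without a block, with Benjamini-Hochberg adjustment over all features and a threshold of 0.05. Deviations of same-numbered arrays correlated at 0.70, 0.63 and 0.51 across features, so arrays of the same number went together, and a fit blocked on that number was an alternative. The mean of the blank spots was 17.5 and 13.9 on control and VCAM1 replicate 1, against 38.4 to 39.7 on the other arrays. Whether the numbers stand for cultures or for array processing was not tested. R 4.3.3, limma 3.58.1, Python 3.11.15, numpy 2.4.6, pandas 2.3.3 and matplotlib 3.10.9 were used.

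The 5 transcripts (members) and the lists were chosen with earlier results of these data known. The genes to be named were the 5 members, Vcam1, measured genes of an IGF and a glucocorticoid list, and the named features whose signal ran most like Igfbp3 and Hsd11b2. Of the 20174 identifiers, 0 were found in the reference gene table, so the 2 gene lists, the cell type markers, Vcam1 and similar features were not looked up.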

Additional observations from a re-analysis of the deposited data

How the results depend on the processing

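The fold changes of Igfbp2, Igf1 and Igf1r moved by less than their spread between replicates under all 16 alternatives, those of Igf1 changing sign in 6 and those of Igf1r in 2. Igfbp3 kept its direction in all 16 and moved by more than its spread under 1, normexp on the local background, to -0.47. Hsd11b2 moved to -0.74 under normexp without background. With normexp on the local background its log2 fold change was 0.0075 (standard error 0.37), too imprecise to tell a lower level from no difference. Both normexp settings added an offset of 50 and were followed by quantile normalization. The cause of these moves was not tested. With 1 array left out, the log2 fold change lay between -0.93 and -0.62 for Igfbp3, between -0.27 and -0.062 for Igfbp2, between -0.23 and 0.30 for Igf1, between -0.058 and 0.34 for Igf1r and between -0.99 and -0.83 for Hsd11b2. The median over all features tested lay between -0.035 and 0.25 in those fits. The paired analysis was limma with the replicate number as a block. It left all 5 fold changes as they were, at -0.79, -0.16, 0.042, 0.10 and -0.90. Their moderated standard errors became 0.25 for each of the 5, though the SD of the differences within pairs ran from 0.11 (Igf1) to 0.30 (Igfbp2). The count of features called after adjustment went from 0 to 20. That count rose to 3 under normexp without background and was 0 in every other alternative, also with 1 array left out. The count before adjustment was 286, and it became 839 under normexp without background, 650 under quantile normalization, 874 in the blocked fit and between 166 and 1357 with 1 array left out. Of the unadjusted calls, 188 were higher and 98 lower, against 272 and 378 with quantile normalization. The counts of IGF and glucocorticoid genes called and the check of Vcam1 were not run, because no file names their features. For dim features the detection limit, between 0.709 and 0.888 after scaling, bounds what can be measured.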
